A study of Mus musculus with 6 samples.

Results

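The genes described here encode, in the nucleus, the subunits of the 5 respiratory complexes of mitochondria. They were taken by symbol from an array annotation: symbols that begin with Nduf followed by a, b, c, s or v and a digit (complex I), Sdha to Sdhd (complex II), Uqcr (complex III), Cox4 to Cox8 (complex IV) and Atp5 (complex V). The rule found 80 genes of the 22180 measured under a single symbol, with 33 in complex I, 4 in complex II, 8 in complex III, 17 in complex IV and 18 in complex V. Of these, 68 are common subunits of the complex they are named for. The other 12 are tissue-restricted isoforms, the relatives Ndufa4 and Ndufa4l2, the supercomplex factor Cox7a2l and 2 entries named as pseudogenes, Uqcrh-ps1 and Atp5c1-ps. Another 9 symbols that fit the pattern were measured only on array rows shared with other genes and are not among the 80. They are Cox6c, Ndufb2, Ndufb4, Ndufb4b, Ndufb4c, Ndufs5-ps, Ndufs6, Ndufs6b and Uqcr10. The mitochondrially encoded subunits were not analysed here.

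RNA came from basal epithelial cells of the mammary gland, the outer, contractile layer of the ducts, sorted by flow cytometry from virgin female mice of 8 to 14 weeks. One group of 3 arrays is wild type, and the other group of 3 comes from mice labelled Trp53-/-, p16ink4a-/- and p19arf-/-, where p16Ink4a and p19Arf are both products of Cdkn2a. This second group is called knockout below, after its label. The labels call the replicates biological and do not say whether an array pooled animals or whether replicates shared a litter or a sorting day, so the p-values measure the spread between these arrays. The labels name no Cre line and describe no control that shares a deletion with the knockout mice.

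Basal markers were high on every array: the mean log2 level of the 15 measured genes of a list of 16 lay between 10.12 and 10.59, and Krt14, a basal keratin, between 13.21 and 13.51. A list of 16 general luminal markers was also well above the median gene (log2 5.78), with array means between 7.94 and 9.07. Those means varied most among the wild type arrays. Trp53 was not analysed here. Cdkn2a stood at log2 6.42, 5.84 and 6.48 in the wild type arrays and 6.25, 6.31 and 6.39 in the knockout arrays (difference 0.07, adjusted p = 1.0), so this gene does not check the labels, which do not place its probes inside or outside the deleted part. The median row of an array ranged from 5.22 to 5.39, and no array repeated another.

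Complexes I and II feed electrons from NADH and succinate into ubiquinone, complex III passes them to cytochrome c, and complex IV hands them to oxygen. Complexes I, III and IV pump protons while they do so, and complex V, the ATP synthase, uses the returning protons to make ATP. All complexes except complex II also hold subunits made inside the mitochondrion, so the nuclear genes are one side of a joint assembly. Nuclear respiratory factor 1 (NRF1), the ETS factor GABPA (also called NRF2) and YY1 are known regulators of many of these genes.

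RefSeq promoter windows of assembly GRCm38.p6, each running from 250 bases before a start site to 50 after it, were found for 64 of the 80 genes, in 69 windows. Exact matches on either strand were counted for 6 motifs. The NRF1 core GCGCATGCG was in 11.6% of the 69 windows and in 1.75% of all 32851 windows of the table. The ETS core CCGGAAG was in 24.6% against 8.86%, and the YY1 core AAGATGGCG in 8.7% against 1.4%. Any of these 3 was in 26 windows, or 37.7%, against 11.4% of all windows. Shares lay closer together for the SP1 box GGGCGG (40.6% against 35.7%) and the CCAAT box (39.1% against 37.4%), while the cyclic AMP response element TGACGTCA was in 3 windows (4.35% against 1.79%). No motif here contains another, though matches may overlap, and base composition was not adjusted for. Windows of respiratory genes had a median of 19 CpG dinucleotides against 7 over the whole table, and a median GC content of 57.3% against 52.7%. A match is a description of the letters and not a bound site.

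**Figure D1:**
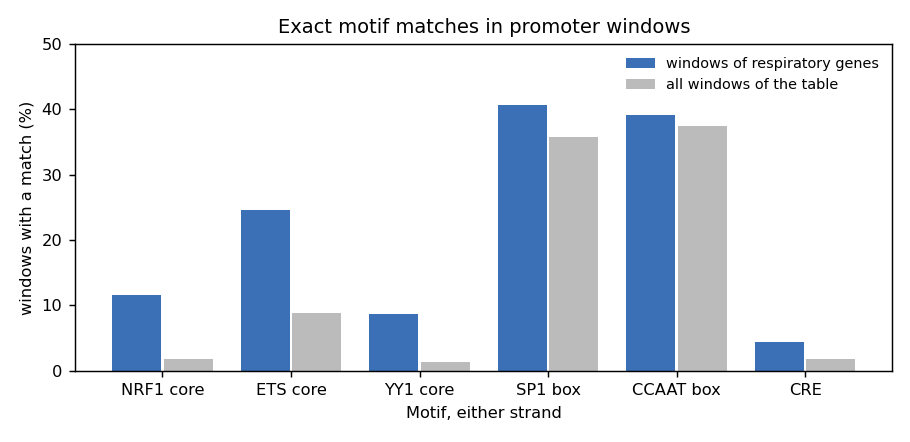
The bars give the percent of promoter windows with an exact match to each motif on either strand, for the 69 windows of respiratory genes (blue) and all 32851 windows of the RefSeq table (grey). The blue bar is the higher one for each motif, with the NRF1 core at 11.6% against 1.75% and the CCAAT box at 39.1% against 37.4%.

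Of the 4 tissue-restricted complex IV isoforms with a window (Cox6b2, Cox7a1, Cox7b2 and Cox8b), 0 held the NRF1, ETS or YY1 core, and their median was 8.5 CpG. Of the 64 genes with a window, 26 held at least 1 of those cores. The common complex IV genes Cox5a, Cox5b, Cox7a2, Cox7b and Cox7c held none either, while Cox6a1, Cox6b1 and Cox8a did. Cox7b had 5 CpG. Whether restricted and common forms differ was not tested. The following windows are chosen examples with and without a core. They include Sdhd, the gene of smallest p that held one of those cores. Each starts 250 bases before the start site, ends 20 bases after it, and lies on the minus strand of GRCm38.p6. Capitals mark the NRF1 and ETS cores or their reverse complements. Cox6a1 (chr5:115348939-115349208) and Cox8a (chr19:7217597-7217866) are common subunits, Cox8b (chr7:140900427-140900696) is the heart and muscle isoform of subunit 8, and Sdhd (chr9:50603830-50604099) is a membrane anchor of complex II.
Cox6a1: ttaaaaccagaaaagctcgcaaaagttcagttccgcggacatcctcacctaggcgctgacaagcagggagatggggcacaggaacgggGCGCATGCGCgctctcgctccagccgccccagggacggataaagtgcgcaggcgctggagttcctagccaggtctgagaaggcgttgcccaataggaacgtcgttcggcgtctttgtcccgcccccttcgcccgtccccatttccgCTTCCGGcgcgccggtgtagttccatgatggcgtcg
Cox8a: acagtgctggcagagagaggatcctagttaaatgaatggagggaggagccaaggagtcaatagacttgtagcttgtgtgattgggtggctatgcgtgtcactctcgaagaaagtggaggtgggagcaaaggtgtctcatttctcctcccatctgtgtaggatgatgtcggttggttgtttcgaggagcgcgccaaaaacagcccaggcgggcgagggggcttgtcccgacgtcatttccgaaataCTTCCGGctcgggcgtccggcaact
Cox8b: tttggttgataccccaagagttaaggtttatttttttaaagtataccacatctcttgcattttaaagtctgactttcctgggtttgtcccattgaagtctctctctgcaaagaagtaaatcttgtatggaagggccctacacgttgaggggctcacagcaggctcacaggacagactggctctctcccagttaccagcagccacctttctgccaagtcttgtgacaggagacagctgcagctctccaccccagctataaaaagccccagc
Sdhd: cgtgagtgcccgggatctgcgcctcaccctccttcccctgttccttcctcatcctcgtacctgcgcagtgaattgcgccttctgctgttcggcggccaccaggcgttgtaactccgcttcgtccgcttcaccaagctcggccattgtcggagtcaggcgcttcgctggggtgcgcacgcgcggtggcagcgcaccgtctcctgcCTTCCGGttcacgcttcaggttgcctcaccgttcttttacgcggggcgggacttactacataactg
In these letters Cox6a1 held 2 overlapping NRF1 matches, one on each strand, and 1 ETS match. Sdhd and Cox8a held 1 ETS match each, and Cox8b none. The Cox8b window had 1 CpG, against 15 in Cox8a, 28 in Cox6a1 and 28 in Sdhd.

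Respiratory genes were among the bright rows of these arrays. Mean log2 levels over the 6 arrays were above the upper quartile of all genes (7.17) for 60 of the 80, and below the median gene (5.78) for 10. Median levels were 9.60 in complex I (range 4.52 to 12.45), 8.27 in complex II (6.8 to 9.15), 9.33 in complex III (3.58 to 12.79), 8.12 in complex IV (3.70 to 12.52) and 10.11 in complex V (3.61 to 13.09). Such levels depend on each row's probes, so they place a gene only roughly, and the comparisons below set arrays against each other within a gene. The highest rows were Atp5l at 13.09 and Atp5md at 13.02, both small membrane subunits of the ATP synthase. The lowest were Uqcrh-ps1 at 3.58, Atp5c1-ps at 3.61 and the testis isoform Cox8c at 3.70.

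No respiratory gene passed the genotype test. With limma across all 22180 genes and Benjamini-Hochberg adjustment, 0 of 80 had an adjusted p under 0.05, and 0 of all genes did (0.0%), the smallest adjusted p of any gene being 0.818. At an unadjusted p under 0.05 the counts were 0 of 80 and 736 of all genes (3.32%). Differences, given throughout as knockout minus wild type on the log2 scale, were below 0 for 64 of the 80 genes and above 0 for 16. That is 80% lower, beside 51.7% of all genes. The median difference was -0.09, beside -0.01 over all genes, with single genes between -0.61 (Cox7a1) and 0.33 (Ndufb11). Each of these sizes is of the order of its own error: the median standard error was 0.177. Genes of one complex share arrays and are not independent of each other, so the counts of lower genes carry no test.

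All 3 knockout arrays lay below all 3 wild type arrays in 1 of the 80 genes, Atp5j2, and 4.05% of all genes did so. They lay above in 1, Cox4i2, and 3.63% of all genes did so. Both shares of the respiratory genes are therefore under the background.

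**Figure D2:**
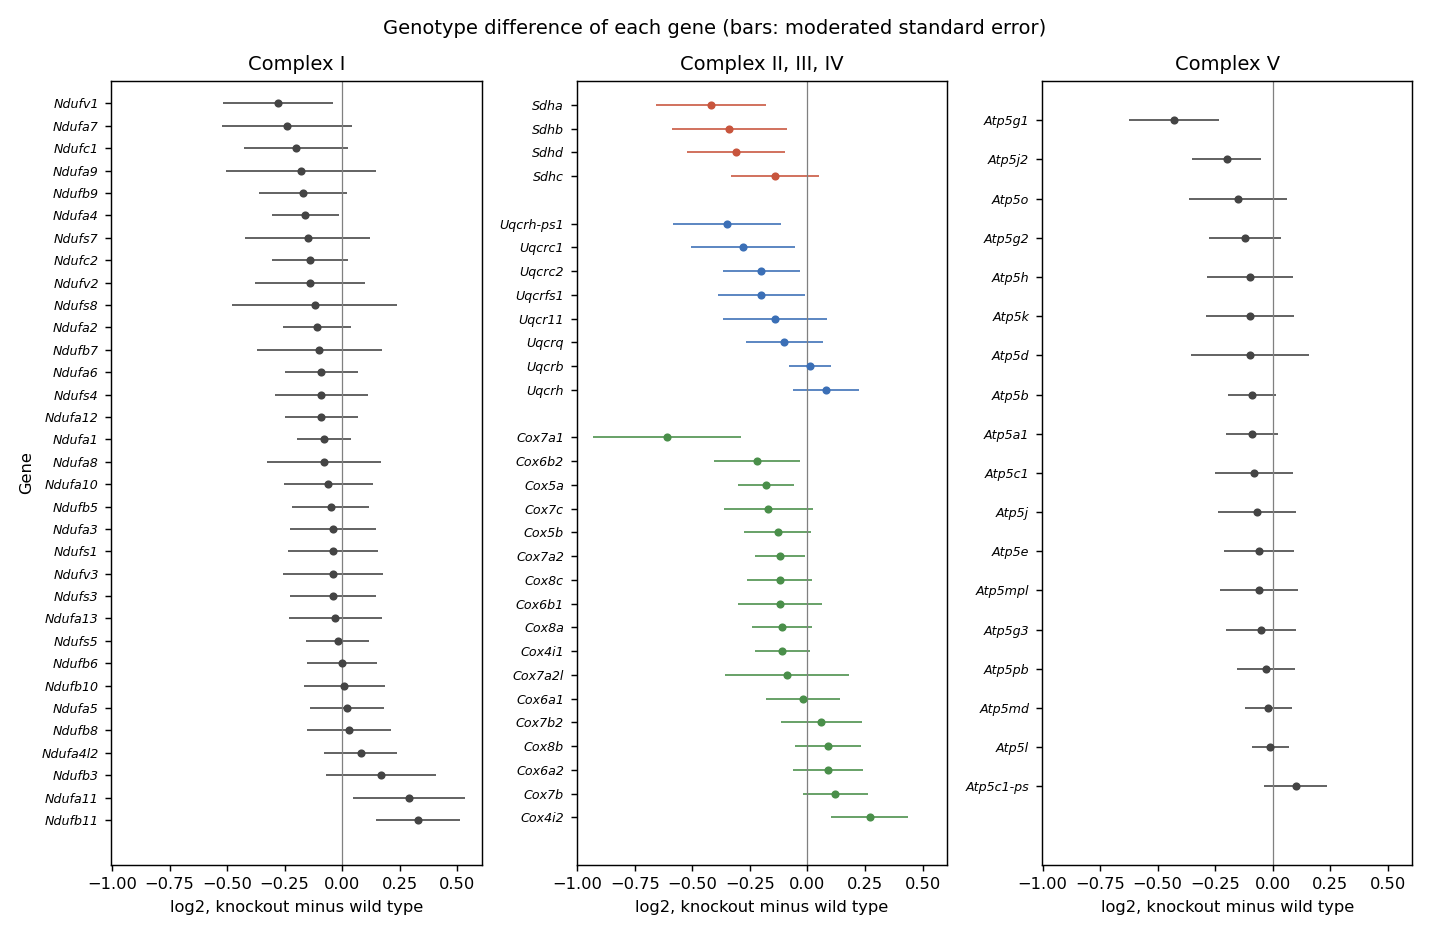
Each point is one of the 80 genes, plotted by its log2 difference (knockout minus wild type, horizontal axis) with its moderated standard error as a bar, sorted within complexes I to V. Of the points, 64 lie left of 0 and 16 right of it, and 0 passed the test.

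The arrays of 1 genotype differed from each other more than the genotypes did. Wild type replicate 1 was the lowest of the 6 arrays in 41 of the 80 genes (51.2%, beside 15.2% of all genes), and wild type replicate 3 was the highest in 43 (53.8%, beside 14.1%). Median deviations from each gene's own mean over 6 arrays were -0.18, 0.12 and 0.20 in wild type replicates 1, 2 and 3. In knockout replicates 1, 2 and 3 they were -0.08, 0.03 and -0.07. The knockout arrays thus sat between the extremes of the wild type arrays. Wild type replicate 1 was below all 3 knockout arrays in 43 genes (53.8%, beside 22.3% of all genes), and wild type replicates 2 and 3 were both above all 3 in 36 (45.0%, beside 12.4%).

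The same shares were counted within ranges of mean log2 level. Wild type replicate 1 was lowest in 25.0% of the 20 respiratory genes under 7 (12.1% of all 16056 genes there), in 65.5% of the 29 from 7 to 10 (24.0% of 5415) and in 54.8% of the 31 from 10 to 15 (17.6% of 709). Wild type replicate 3 was highest in 20.0% of the respiratory genes under 7 (14.6% of all genes there), in 44.8% from 7 to 10 (12.2%) and in 83.9% from 10 to 15 (17.5%). The shares of respiratory genes were thus smallest in the dim range. The part of signal level in the array differences was not tested.

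**Figure D3:**
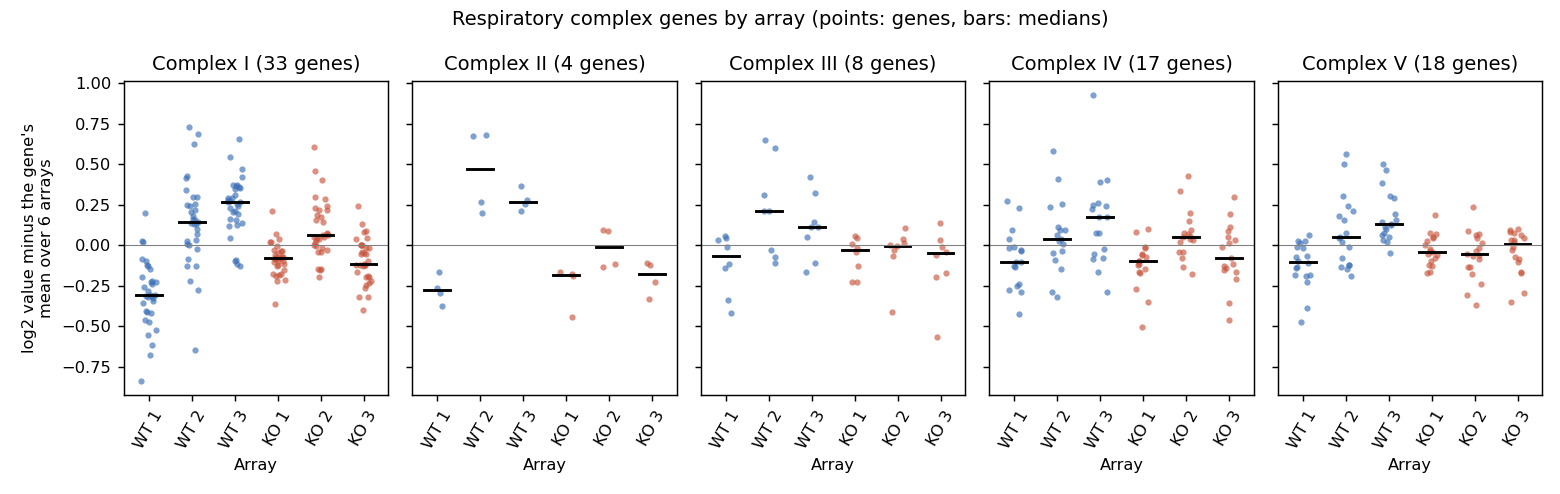
Each panel is one complex, each point one gene on one array (WT, wild type; KO, knockout; replicates 1 to 3), plotted as its log2 value minus the gene's mean over the 6 arrays, and black bars are medians. In complex I the medians run from -0.31 in WT 1 to 0.27 in WT 3, and the 3 knockout medians lie between -0.12 and 0.06.

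Single arrays therefore moved the summary. Without wild type replicate 1 the median difference of the 80 genes was -0.21, with 68 lower, and the knockout arrays lay below both remaining wild type arrays in 36 genes (45.0%, beside 12.4% of all genes). Without wild type replicate 3 the median was 0.00, with 38 lower. Leaving out knockout replicate 1 gave -0.06, and leaving out any of the other arrays gave -0.13 to -0.07. In each of these 6 fits 0 genes passed the adjusted threshold. Without wild type replicate 1, an unadjusted p under 0.05 was reached by 15 respiratory genes (18.8%), beside 1788 of all genes (8.06%).

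Complex I oxidizes NADH and is the largest of the complexes. Wild type replicate 1 was lowest in 26 of its 33 genes (78.8%, beside 15.2% of all genes) and lay below all knockout arrays in 27 (81.8%, beside 22.3%). Wild type replicate 3 was highest in 18 of 33 (54.5%, beside 14.1%). Differences were below 0 for 25 of 33, with a median of -0.08. That median moved with single arrays, to -0.24, 0.01 and 0.03 when wild type replicate 1, 2 or 3, in that order, was left out. Without knockout replicates 1, 2 or 3 it was -0.02, -0.13 or -0.03. All 6 core subunits of the peripheral arm, which carries the electrons from NADH to ubiquinone, had a difference below 0 (median -0.13), as did 7 of 8 accessory subunits of that arm (median -0.09) and 11 of 17 of the membrane arm (median -0.04). Whether these groups differ from each other was not tested.

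Ndufv1 binds the FMN that accepts electrons from NADH. It stood at log2 7.88, 8.85 and 8.36 in wild type replicates 1, 2 and 3 and at 8.13, 8.07 and 8.06 in the knockout replicates. The knockout values were nearly equal (SD 0.0368, n = 3), while the wild type values spread on both sides of them (SD 0.489, n = 3), so the difference of -0.28 (SE 0.24, adjusted p = 1.0) came with overlapping groups. Ndufs8, a core iron-sulfur subunit of the quinone-reducing module, had the widest range of the 80 genes, 1.57 log2 units. Its values were 7.02, 8.59 and 8.13 in wild type and 7.68, 8.09 and 7.64 in knockout arrays. Both the lowest and the highest value were wild type, and the difference was -0.12 (SE 0.358). Ndufa9, which sits where both arms meet, ran the same way, at 8.38, 9.75 and 9.33 in wild type and 9.0, 9.25 and 8.66 in knockout arrays.

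Ndufb11, an X-linked subunit of the membrane arm, had the largest difference above 0 of the 80 genes. Wild type values were 6.76, 6.57 and 6.72 and knockout values 7.06, 7.25 and 6.73. Knockout replicate 3 fell among the wild type arrays, so the difference of 0.33 (SE 0.182, adjusted p = 1.0) did not separate the groups. Ndufa11, also of the membrane arm, stood at 8.93, 9.26 and 9.55 in wild type and 9.17, 10.00 and 9.43 in knockout arrays, a difference of 0.29 (SE 0.244). A second, dimmer row of Ndufa11 gave -0.15, so the direction of this gene depends on the row.

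Ndufa4 carries a complex I name and is known as a subunit of complex IV. It stood at 11.68, 11.83 and 12.20 in wild type and 11.79, 11.63 and 11.83 in knockout arrays, a difference of -0.16 (SE 0.147, adjusted p = 1.0). Its hypoxia-induced relative Ndufa4l2 was dim on every array, between 4.30 and 4.76, below the 25th percentile of all genes (4.57) in its mean of 4.52.

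Complex II, succinate dehydrogenase, is the only complex made wholly from nuclear genes, and it also catalyses a step of the citric acid cycle. All 4 of its genes were lower on average in knockout arrays, with a median of -0.33, the largest of the 5 complexes, and 0 of 4 passed the test. In all 4 genes wild type replicates 2 and 3 were above the 3 knockout arrays (12.4% of all genes had this), and wild type replicate 1 was not. The 4 genes share arrays and are not independent of each other. The median was -0.55 without wild type replicate 1 and -0.14 without wild type replicate 2, and lay between -0.41 and -0.26 without any one of the others.

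Sdha, the flavoprotein that oxidizes succinate, stood at 8.86, 9.83 and 9.41 in wild type and 8.99, 9.02 and 8.82 in knockout arrays. Only wild type replicate 1 lay among the knockout values, and the difference was -0.42 (SE 0.238, adjusted p = 1.0), a 1.34-fold higher wild type mean. It was -0.68 when wild type replicate 1 was left out and -0.19 when wild type replicate 2 was. Sdhb, the iron-sulfur subunit that takes the electrons on, had the same shape, at 8.74, 9.80 and 9.33 against 8.94, 9.0 and 8.89, a difference of -0.34 (SE 0.25). The anchors Sdhc and Sdhd hold the enzyme in the membrane and bind ubiquinone. Sdhd stood at 7.27, 7.70 and 7.80 in wild type and 6.99, 7.53 and 7.31 in knockout arrays (difference -0.31, SE 0.212). Sdhc stood at 6.54, 7.0 and 7.08 against 6.61, 6.89 and 6.69 (difference -0.14, SE 0.192). In both anchors knockout replicate 2 was the highest of its group.

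**Figure D4:**
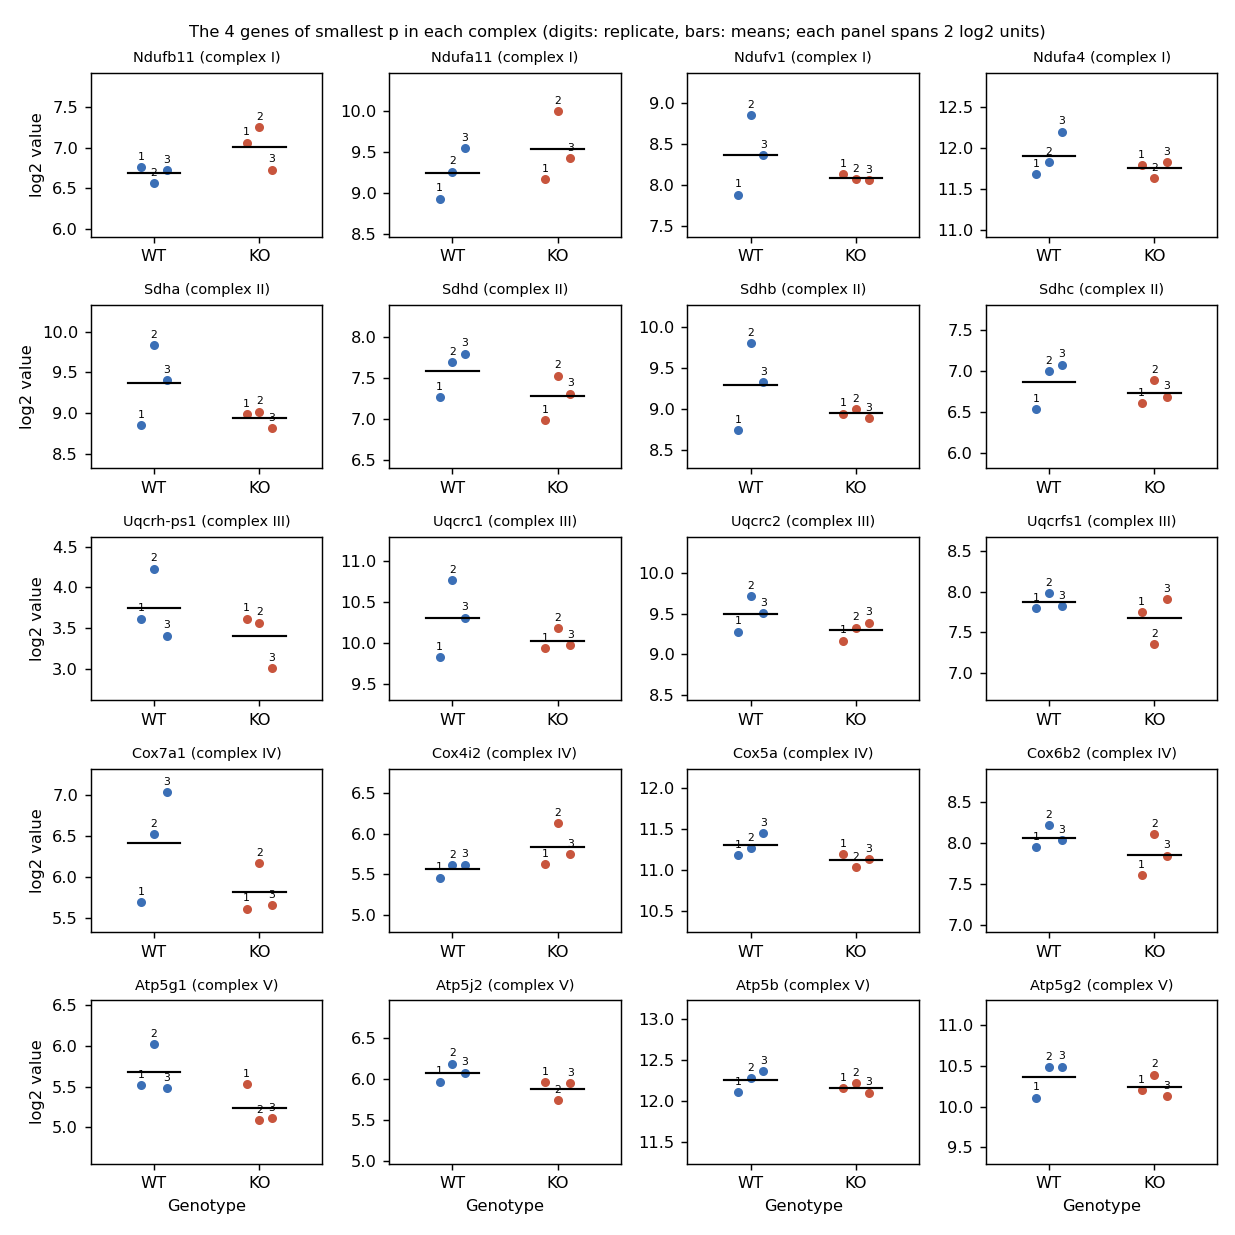
Each panel shows the log2 value of one gene on the 3 wild type (WT, blue) and 3 knockout (KO, red) arrays, with the replicate number above each point and the group mean as a bar, for the 4 genes of smallest p in each complex. The groups overlap in every panel except Cox4i2 and Atp5j2, and in Sdhb wild type replicate 1 (8.74) is below all knockout arrays while wild type replicates 2 and 3 are above them.

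Complex III moves electrons from ubiquinol to cytochrome c. Of its 8 genes 6 had a difference below 0, with a median of -0.17. Without wild type replicate 1 that median was -0.27, and without wild type replicate 2 or 3 it was -0.08. The core proteins Uqcrc1 and Uqcrc2 are the large matrix-side subunits. Uqcrc1 stood at 9.83, 10.77 and 10.31 in wild type and 9.94, 10.18 and 9.97 in knockout arrays (difference -0.28, SE 0.226, adjusted p = 1.0). Uqcrc2 stood at 9.28, 9.71 and 9.51 against 9.17, 9.33 and 9.39 (difference -0.20, SE 0.167). In both, wild type replicates 2 and 3 were above every knockout array and wild type replicate 1 was among or below them.

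The Rieske iron-sulfur protein Uqcrfs1, which takes the electron toward cytochrome c, differed in shape. It stood at 7.80, 7.98 and 7.82 in wild type and 7.75, 7.36 and 7.91 in knockout arrays, and knockout replicate 2 alone was low (difference -0.20, SE 0.189). Uqcrb, at the quinone site, was among the most even genes, within 0.22 log2 units over the 6 arrays around 12.79. Uqcrh-ps1 had the smallest p of the complex (3.62, 4.23 and 3.41 against 3.62, 3.57 and 3.01, difference -0.35, SE 0.235). It is named as a pseudogene of the hinge protein gene Uqcrh, lay in the dimmest part of the table, and may share sequence with Uqcrh, so its value is uncertain. Uqcrh itself stood at 9.32, 9.19 and 9.15 against 9.32, 9.37 and 9.22, a difference of 0.08 (SE 0.145).

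Complex IV, cytochrome c oxidase, reduces oxygen, and several of its subunits have a common form and a form known from particular tissues. The 9 common subunits had a difference below 0 in 8 cases, with a median of -0.12, and the 7 restricted isoforms in 3, with a median of 0.06. Over all 17 genes the median was -0.11, and leaving out wild type replicate 1 gave -0.19, wild type replicate 3 gave -0.03 and knockout replicate 3 gave -0.07. Wild type replicate 1 was lowest in 3 of the 17 and knockout replicate 1 in 6. Wild type replicate 3 was highest in 8 of the 9 common subunits.

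Cox5a, a common subunit, stood at 11.18, 11.27 and 11.45 in wild type and 11.19, 11.03 and 11.13 in knockout arrays. Knockout replicate 1 fell between wild type replicates 1 and 2, and the difference was -0.18 (SE 0.123, adjusted p = 1.0). Subunit 4 is a regulatory subunit of the enzyme. Its common form Cox4i1 was even and bright, from 12.16 to 12.56 over the arrays (difference -0.11, SE 0.119). Cox4i2, the form known from lung and from low oxygen, was dim, with 5.46, 5.61 and 5.62 in wild type and 5.63, 6.13 and 5.75 in knockout arrays. The groups did not overlap, but wild type replicate 3 and knockout replicate 1 were 0.01 apart on the printed values, and the difference of 0.27 (SE 0.168, adjusted p = 1.0) did not pass.

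Cox7a1, the heart and muscle form of subunit 7a, had the largest difference of the 80 genes and the second largest range, 1.43. It stood at 5.69, 6.52 and 7.04 in wild type and 5.61, 6.17 and 5.65 in knockout arrays. Wild type replicates 2 and 3 were above all knockout arrays and wild type replicate 1 was among them, so the difference of -0.61 (SE 0.32, adjusted p = 1.0), or 1.53-fold, came with overlapping groups. The common form Cox7a2 was bright and even, between 12.40 and 12.77 (difference -0.12, SE 0.109). Leaving out wild type replicate 1 moved the difference of Cox7a1 to -0.97 and leaving out wild type replicate 3 to -0.30, and it was -0.25 with the mean level of general luminal markers, described below, as a covariate. The mean level of 11 skeletal muscle markers lay between 5.09 and 5.22 on every array, with 5 lower and 6 higher in knockout. The part of other cell types in the Cox7a1 values was not tested.

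Among the other isoform pairs, the common form was the bright one on these arrays. Cox6a1 lay between 11.23 and 11.74 and the muscle form Cox6a2 between 5.33 and 5.73. Cox8a lay between 10.70 and 11.02, the muscle form Cox8b between 4.65 and 4.99 and the testis form Cox8c between 3.53 and 3.97. Cox7b lay between 11.18 and 11.67 and the testis form Cox7b2 between 3.56 and 4.15. A second, dimmer row of Cox7b gave a difference of -0.36 where the row used gave 0.12, so its direction depends on the row. The testis form Cox6b2 was the exception among restricted isoforms, above the upper quartile of all genes. It stood at 7.95, 8.22 and 8.04 in wild type and 7.61, 8.11 and 7.85 in knockout arrays (difference -0.22, SE 0.186, adjusted p = 1.0). Its common partner Cox6b1 lay between 10.19 and 10.85.

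Complex V couples the proton flow through a membrane ring to ATP synthesis in the F1 head. Differences were below 0 for 17 of its 18 genes, all but Atp5c1-ps, with a small median of -0.08. This held for 5 of 5 F1 subunits, 3 of 3 c ring genes, 4 of 4 peripheral stalk subunits and 5 of 5 further membrane subunits, while 0 passed the test. Without wild type replicate 1 the median was -0.17, and without wild type replicate 3 it was 0.00. These genes were also the most even of the 5 complexes: the median range over arrays was 0.43, beside 0.69 in complex I and 0.56 over all genes. The gap was smaller to complex IV (0.49) and to all genes at a mean log2 level of 10 to 15 (0.50). Atp5l stayed within 0.14 and Atp5pb, a stalk subunit, within 0.13.

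The c ring subunit is encoded by 3 genes, Atp5g1, Atp5g2 and Atp5g3, whose mature proteins are the same. Atp5g1 had the smallest p of the 80 genes and was the dimmest of the 3 rows. It stood at 5.52, 6.02 and 5.48 in wild type and 5.53, 5.09 and 5.11 in knockout arrays. Knockout replicates 2 and 3 were the lowest arrays, knockout replicate 1 lay among wild type, and the difference was -0.43 (SE 0.196, adjusted p = 1.0), or 1.35-fold. Leaving out wild type replicate 2 gave -0.25. Atp5g2 stood at 10.11, 10.48 and 10.49 against 10.20, 10.39 and 10.13 (difference -0.12, SE 0.157), and Atp5g3 lay between 9.15 and 9.45 over all arrays (difference -0.05, SE 0.152).

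Atp5j2, the f subunit of the membrane part, was the one gene with all knockout arrays below all wild type arrays. Its values were 5.97, 6.19 and 6.08 in wild type and 5.96, 5.74 and 5.95 in knockout arrays. The nearest pair, wild type replicate 1 and knockout replicate 1, were 0.01 apart on the printed values, and the difference was -0.20 (SE 0.149, adjusted p = 1.0). The catalytic beta subunit Atp5b stood at 12.11, 12.28 and 12.36 against 12.16, 12.22 and 12.10, a difference of -0.09 (SE 0.103).

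Genes around the complexes were counted from lists of assembly factors and neighbouring pathways, and 0 genes of these lists passed the test. Complex I assembly factors were lower in 11 of 17 (median -0.13), complex II in 2 of 4 (0.02), complex III in 4 of 6 (-0.11), complex IV in 13 of 19 measured (-0.09) and the complex V list in 3 of 4 (-0.06), leaving out Atp5md, which is one of the 80. Foxred1, a complex I assembly factor, stood at 6.10, 6.52 and 6.07 in wild type and 5.86, 5.97 and 5.94 in knockout arrays, so its groups did not overlap (difference -0.31, SE 0.169, adjusted p = 1.0). Cox15, needed to make the heme A of complex IV, stood at 6.66, 6.90 and 6.76 against 6.56, 6.41 and 6.53 (difference -0.27, SE 0.153), also without overlap. Mobile carriers and coenzyme Q synthesis were lower in 9 of 11 measured (median -0.13), with Coq3, a methyltransferase of that synthesis, at 5.79, 6.97 and 6.57 against 5.82, 6.02 and 6.09.

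Citric acid cycle genes were lower in 11 of 12 measured (median -0.11), and outer membrane and import genes in 12 of 14 (median -0.12). Idh3a, the catalytic subunit of the NAD-dependent isocitrate dehydrogenase, stood at 7.85, 8.43 and 8.23 in wild type and 7.81, 7.60 and 7.95 in knockout arrays (difference -0.38, SE 0.199). The list of mitochondrial biogenesis and transcription did not share this direction, with 8 of 19 lower and a median of 0.02. In that list Tfb1m, which methylates the mitochondrial ribosomal RNA, stood at 6.07, 6.28 and 5.97 in wild type and 6.66, 7.42 and 6.93 in knockout arrays. All knockout values were above all wild type values, and the difference of 0.89 (SE 0.214, adjusted p = 1.0) did not pass. Twnk, the mitochondrial DNA helicase, stood at 6.06, 6.30 and 5.91 against 6.39, 6.81 and 6.71 (difference 0.54, SE 0.18), again without overlap.

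Luminal markers moved over the arrays beside the respiratory genes. The 16 general luminal genes had mean levels of 7.94, 9.07 and 8.89 in wild type replicates 1, 2 and 3 and 8.33, 8.46 and 7.95 in the knockout replicates. All 16 were lower on average in knockout (median -0.37), 0 of them passed the test, and wild type replicate 1 was the lowest array in 8 of 16. As mean deviations these are -0.50, 0.63, 0.45, -0.11, 0.02 and -0.49, beside -0.19, 0.14, 0.19, -0.09, 0.04 and -0.08 for the 80 respiratory genes and -0.27, 0.46, 0.28, -0.24, -0.02 and -0.20 for complex II. Hormone-sensing luminal markers, 9 of 12 measured, had a similar course (-0.41, 0.81, 0.47, -0.45, 0.13 and -0.55). The mean of 10 luminal progenitor markers did not (-0.33, 0.13, -0.23, 0.16, -0.29 and 0.56), but its genes were mixed. Wild type replicate 2 was highest in 5 of the 10 (Kit, Ltf, Aldh1a3, Cd14 and Lcn2). Knockout replicate 3 was highest in 4 (Csn2, Csn3, Lalba and Elf5). Csn2 stood at 8.03 in knockout replicate 3 and between 2.86 and 3.95 on the other arrays, which weighs on that mean. Basal markers moved less than these luminal lists, within -0.20 and 0.27, but not less than the 80 genes, which lay within -0.19 and 0.19. Knockout replicate 2 was highest in 11 of the 15 basal markers and knockout replicate 3 lowest in 9. In bulk samples, fewer cells of a type and less RNA per cell cannot be told apart.

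With the general luminal level of each array as a covariate, the median difference of the 80 genes was 0.02, with 36 lower and 44 higher. By complex it was 0.10 in complex I, -0.10 in complex II, -0.02 in complex III, -0.02 in complex IV and -0.01 in complex V. Fibroblast markers ran another way, with 8 of 8 higher on average in knockout (median 0.34, 0 passing the test) and array means of 6.85, 6.84 and 6.53 against 7.31, 7.2 and 7.32. The part of luminal or fibroblast cells in the respiratory values was not tested.

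**Figure D5:**
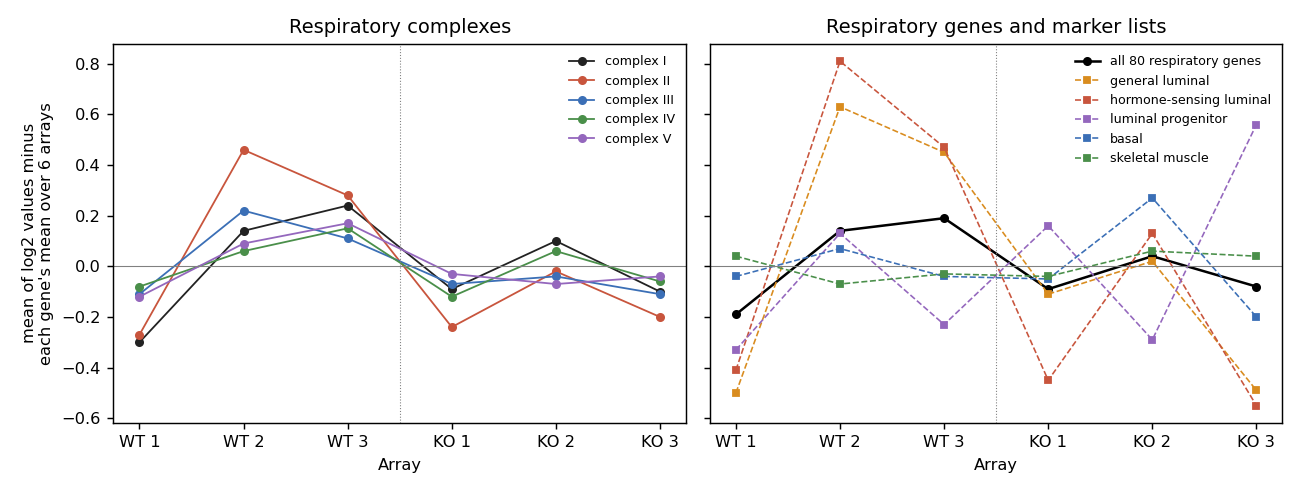
The vertical axis is the mean over genes of the log2 value minus each gene's mean over 6 arrays, drawn for the 5 complexes (left) and for all 80 genes beside 5 marker lists (right), with arrays on the horizontal axis (WT, wild type; KO, knockout) and lines only joining points of one list. General luminal markers and the 80 genes are both lowest in WT 1 (-0.50 and -0.19) and both above 0 in WT 2 and WT 3. They part in KO 3 (-0.49 and -0.08), and the highest array is WT 2 for the luminal markers (0.63) and WT 3 for the 80 genes (0.19). Skeletal muscle markers stay within -0.07 and 0.06.

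Arrays of the same replicate number gave 3 differences per gene. Their medians over the 80 genes were 0.08 for number 1, -0.09 for number 2 and -0.30 for number 3, with 19, 56 and 67 genes lower. Only the first had its median above 0. In complex I these medians were 0.23, -0.07 and -0.33, and in complex II 0.10, -0.49 and -0.46.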

How the data were processed

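Values were the authors' deposited log2 expression values, for which the submitters' processing notes name RMA and Transcriptome Analysis Console 4.0. RMA fits each array to a common distribution, so a shift shared by most genes would not show. The table held 41345 rows, of which the platform annotation gave 1 gene symbol for 23521, several for 1814, and 16010 are unnamed here. Rows with 1 symbol were used. Where a gene had more than 1 such row, which was so for 9 of the 80, its row of highest mean was kept. The other row gave the same sign in 6 of those and the opposite in 3 (Atp5e, Cox7b and Ndufa11). The genotype test was limma 3.58.1 (R 4.3.3), using lmFit and eBayes with trend, run two-sided. P-values were adjusted by Benjamini-Hochberg over 22180 genes, with a threshold of 0.05, and the code was tested on simulated data. An array has no read depth, and 3 arrays per group limit the precision: an exact permutation test of 3 against 3 cannot give a p under 0.1. The 4 genes of smallest p in each complex, the isoform pairs and the ends of ranges were named, with up to 2 genes of smallest p in some of the pathway lists. Ndufs8, Ndufa9, Uqcrh, Uqcrb, Atp5pb, Atp5md, Atp5g3 and Krt14 were added after their values were seen. Promoters were printed for the isoform pair Cox8a and Cox8b and for Cox6a1, whose muscle form Cox6a2 had no window. The promoter of the gene of smallest p with an NRF1, ETS or YY1 core was also printed. The pairs Cox6b1 and Cox6b2, Cox7a1 and Cox7a2, and Cox7b and Cox7b2 had windows too and were not printed. The members and lists were chosen with earlier results of these data known. Across genes, deviations from the group means of arrays with the same number had correlations of 0.121, 0.25 and 0.127. Each is over 0.1, but the labels do not say what a number shares, and wild type replicate 1 correlated with knockout replicate 3 at 0.13. The main test therefore did not pair arrays, and a replicate block was run as an alternative. Alternatives changed the prior, the normalization, the filter on dim rows, the row per gene, array weights, the replicate block, a luminal covariate and the arrays included.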

Additional observations from a re-analysis of the deposited data

How the results depend on the processing

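Under each alternative run, 0 respiratory genes passed the adjusted threshold of 0.05, and at 0.1 0 did so with the settings of the report. With the replicate block, which pairs same-numbered arrays, 0 of 80 passed, so the paired fit changed no call. Each number occurs once in each group, so the block cannot alter a difference, and the 64 lower and the median of -0.09 stayed by construction. It alters the errors: an unadjusted limma p under 0.05 was reached by 1 of the 80 (Cox7a1) and 1112 of all genes. Without the block these counts were 0 and 736. The median of all 80 genes was -0.17 with array weights. With the luminal covariate it was 0.02, with 36 genes lower beside 64 in the main fit, and complex III was at -0.02. Gene by gene, signs were followed only for the 4 of smallest p in each complex. Among those, Sdhc and Atp5g2 turned to 0.02 each. Leaving out one array at a time, complex III ranged from -0.27 to -0.08 and complex V from -0.17 to 0.00. Genes with all knockout arrays lower numbered 2 after quantile normalization again and 0 after centring arrays on their medians. Shares over all genes after these 2 changes are not given here. With one array left out they numbered 1 to 36, with 36 (45.0%, beside 12.4% of all genes) without wild type replicate 1. In each of the other fits the share was under that of all genes, at 1.25% to 6.25% beside 7.63% to 10.4%. Genes with all knockout arrays higher numbered 0 after quantile normalization again, where the share over all genes is not given either. Among the common subunits alone they numbered 0, beside 3.63% of all genes. With one array left out they numbered 1 to 5, with 5 (6.25%, beside 6.56% of all genes) without wild type replicate 3. The cause of these shifts was not tested. Leaving out arrays leaves fewer values to separate, which by itself raises counts of groups without overlap, as the 12.4% of all genes without wild type replicate 1 shows beside 4.05% with all arrays. Depth does not apply to arrays, and 5 of the 80 genes had a mean below log2 4.57, where signal is near the low end of the table.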

Other observations

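The array with the highest values was not the same in every complex. Wild type replicate 2 was highest for 4 of 6 core subunits of the peripheral arm of complex I and for both catalytic subunits of complex II, Sdha and Sdhb. Wild type replicate 3 was highest for 11 of 17 accessory membrane arm subunits of complex I, 8 of 9 common complex IV subunits and 11 of 18 complex V genes. The complexes' genes were spread over 19 chromosomes, with at most 8 on one and 3 on the X chromosome (Ndufa1, Ndufb11 and Cox7b). Differences between these counts were not tested.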
